A study of Arabidopsis thaliana with 9 samples.

Results

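The genes carried by the chloroplast genome of Arabidopsis thaliana were followed in leaf RNA from 3 light environments. All rows that the deposited TPM tables place on the chloroplast genome were taken, which gave 130 rows with 129 locus tags out of 37366 rows in all. They comprise 86 protein-coding rows, 37 tRNA rows and 7 rRNA rows. Of these, 119 reached 0.5 TPM in at least 3 libraries and were tested. TPM, transcripts per 1000000, is a level per unit of gene length within a library. Levels of different genes are set side by side on this scale. It is less sure for genes that may be shorter than most sequenced fragments, such as psbM at 105 bases.

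The 9 libraries came from rosette leaves of 4-week-old wild type plants of the ecotype Columbia, with 3 libraries per group, each made from a pool of 3 plants. Weed-free (WF) plants stayed at a red to far-red ratio (R:FR) of about 1.4 as the labels give it. Plants in biological low R:FR (W) and artificial low R:FR (FR) had 3 weeks at that ratio and then 1 week at about 0.3, made by light reflected from grass or by far-red LEDs. No group carries a transgene or mutation, and all were grown in chambers under a 12 hour photoperiod. Biological and artificial sources stood in separate chambers, so light source and chamber cannot be told apart. The study describes a divider between the weed-free control and the biological source. It does not say whether weed-free plants also stood in the chamber of the artificial source. A chamber difference thus cannot be told apart from the light source in FR against WF either. P-values measure the spread between pools, which the study describes as independent experiments. The 5 leaf mesophyll markers summed to 76980 to 93620 TPM in every library, but the members moved apart, with CAB1 0.98 higher and RBCS1A, CA1 and RCA 1.06 to 1.53 lower in W than in FR on the log2 scale. The 5 guard cell and epidermis markers summed to 56.7 to 62.7 TPM in WF, 64.2 to 84.6 in W and 55.1 to 62.2 in FR. Of these, 3 (FAMA, ATML1 and FDH) were called higher in W than in FR, beside 21.9% of all genes. The log2 differences of KAT1 and MYB60 were -0.37 and 0.09, and neither was called. Of 3 vascular markers, 1 was called higher and 1 lower. The part of these cell types in the results was not tested. Root markers summed to at most 0.802 TPM and flower and pollen markers to at most 1.05 TPM. Coverage divided by FPKM gave 4.37 to 8.40 Gb of aligned sequence in the weed-free and biological low R:FR libraries and 6.59 to 14.1 Gb in artificial low R:FR, with the 2 deepest libraries in the latter.

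Chloroplasts keep a small circular genome that codes for part of the photosynthetic complexes, part of the ribosome that translates them, the core of a bacterial-type RNA polymerase, rRNAs and tRNAs. The remaining subunits are made from nuclear genes and imported. Many chloroplast genes lie in clusters that are transcribed together and cut into smaller RNAs, so neighbouring genes are not independent measurements. Polyadenylation marks chloroplast RNA for decay, unlike nuclear mRNA. The study names the Illumina TrueSeq RNA kit, but how RNA was selected is not given in the sources used here. The part of this selection in the levels below was not tested.

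Chloroplast genes made up a small and similar share of the summed TPM of the libraries in all groups. Their summed TPM corresponded to 3.62, 3.68 and 4.26% of the total in WF, 4.43, 4.24 and 4.13% in W and 5.07, 3.97 and 4.20% in FR. The groups overlapped, and the highest library, artificial low R:FR replicate 1, was also the deepest. On the log2 scale the mean total was 0.15 higher in biological low R:FR than in weed-free and 0.20 higher in artificial low R:FR, and the difference between both treatments was -0.05. Without artificial low R:FR replicate 1 the last value was 0.06. As a sum over the members these totals were given no test. In whole leaves, a change in chloroplast transcripts per cell and a change in the share of cells rich in chloroplasts cannot be told apart.

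**Figure D1:**
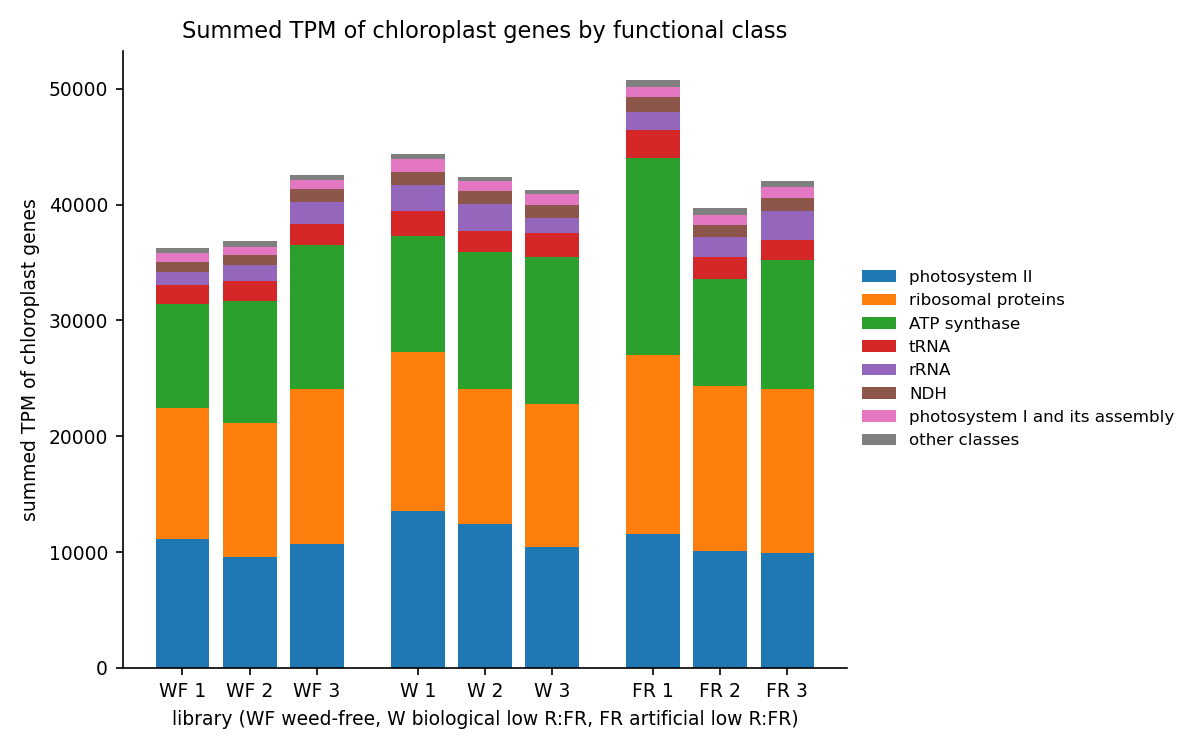
Summed TPM (y axis, from 0) of chloroplast genes in each of the 9 libraries (x axis), stacked by functional class, with cytochrome b6f, RNA polymerase, the Rubisco large subunit and other proteins joined as other classes. Photosystem II, ribosomal protein and ATP synthase genes fill most of each bar, and the tallest bar is FR 1 at 50740 TPM.

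A few genes held most of this signal. The 3 rows with the highest level took 61.9 to 68.1% of chloroplast TPM in each library, and the 10 highest took 78.6 to 83.7%. Only 5 rows averaged at least 1000 TPM, 26 lay between 100 and 1000 TPM, 35 between 10 and 100, 45 between 1 and 10, and 19 below 1. The row at the top was psbM, a photosystem II subunit of low molecular mass at the dimer interface, with a mean of 10279 TPM. It was followed by atpE, the epsilon subunit of the chloroplast ATP synthase, at 9256 TPM and by rpl32, a protein of the large ribosomal subunit, at 7750 TPM. The coding sequence of psbM is shown because the row of highest TPM is also one of the shortest genes of the genome, at 105 bases on the minus strand (chloroplast genome, 28707 to 28811, TAIR10.1). Capitals mark its start and stop codons.
psbM: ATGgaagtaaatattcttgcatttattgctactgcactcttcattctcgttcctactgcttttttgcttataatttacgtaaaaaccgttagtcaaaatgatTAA

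Many of these genes have a stretch rich in A within them or in the 200 bases after them. The stretch of 20 bases with the most A in the gene or the 200 bases after it is shown for the 3 highest rows, with A in capitals. They lie at 28673 to 28692, 52182 to 52201 and 113683 to 113702 of the chloroplast genome (TAIR10.1), on the strand of each gene. Those of psbM and atpE lie after the gene, and whether the RNA contains them was not tested.
psbM: tActAtcAAAAAAAAAAAAA
atpE: AAAAAcAAtAAAAtAAAAAA
rpl32: AAAAgAAgAAAAAAAgAcAA
Such stretches were common in this genome, and psbA had 1 with 15 A at a mean of only 119.8 TPM. At least 14 A in 20 bases occurred in 6 of the 10 rows above 500 TPM and in 65 of the other 119 rows with a simple span, and Spearman's rho between the number of A and the mean TPM was 0.24 over 129 rows, which share libraries and base composition.

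**Figure D2:**
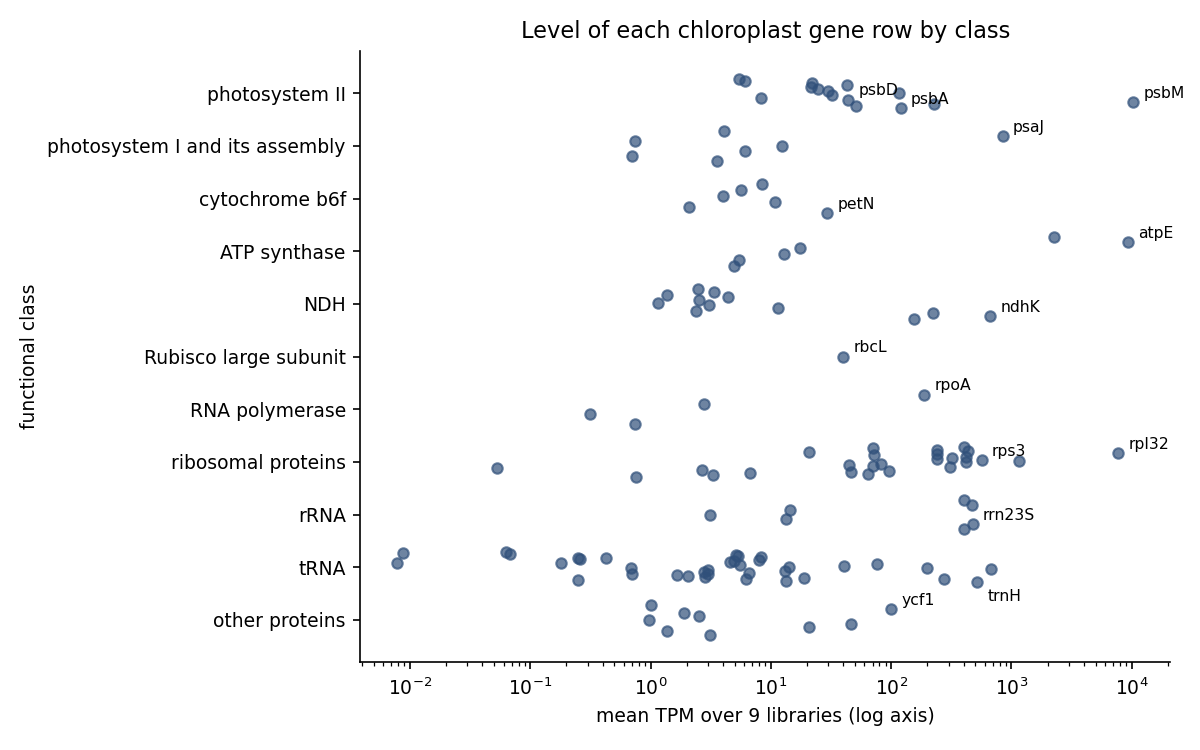
Mean TPM over 9 libraries (x axis, log scale) of each chloroplast gene row, by functional class (y axis), 1 point a row, with the row at 0 TPM in all libraries left out. Levels within a class span several powers of 10, and psbM, atpE and rpl32 stand far to the right of their classes.

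Photosystem II splits water and passes electrons to the plastoquinone pool. Its 15 chloroplast genes were all tested and, apart from psbM, their means ran from 5.47 TPM to the 228 TPM of psbI. The TPM of psbM was 10457, 8940 and 9956 in WF, 12584, 11625 and 9711 in W and 10730, 9386 and 9121 in FR, with all groups overlapping. For psbI, another small subunit, it was 209, 218 and 206, then 241, 221 and 215, then 280, 216 and 249 in the same order. The reaction centre genes were far lower in TPM. psbA, which codes for the D1 protein, had 77.1, 101 and 147 TPM in WF, 187, 163 and 89.0 in W and 86.5, 114 and 114 in FR. psbD, which codes for D2, had 35.8, 34.8 and 48.3, then 48.5, 44.5 and 44.9, then 59.2, 40.7 and 40.1 TPM. Neither passed the test in any comparison.

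The other photosynthetic classes showed the same spread of levels. Among 7 genes of photosystem I and its assembly, psaJ, a small subunit, had 757, 712 and 789 TPM in WF, 1037, 822 and 853 in W and 865, 878 and 898 in FR. Here every library of both treatments lay above every weed-free library, but no difference passed the test (adjusted p = 0.19 and 0.33 by limma). psaI, next in level, had 11.04, 10.05 and 11.06, then 14.67, 13.32 and 12.72, then 13.91, 12.30 and 13.08 TPM. Its libraries too were all higher in both treatments, without passing (adjusted p = 0.10 and 0.22, limma). In the cytochrome b6f complex, which links both photosystems, petN had 20.3, 68.5 and 24.7 TPM in WF, 28.1, 19.4 and 18.6 in W and 26.4, 31.2 and 25.7 in FR. A single weed-free library thus stood above the rest. petL, another small subunit, had 8.56, 6.92 and 10.3, then 12.0, 13.6 and 10.6, then 14.5, 11.8 and 9.31 TPM, and no row of the complex passed.

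The ATP synthase genes split into a pair of high TPM and 4 rows of 4.92 to 17.5 TPM. atpE had 7251, 8533 and 9636 TPM in WF, 7686, 9497 and 9876 in W and 14088, 7607 and 9133 in FR. The libraries of artificial low R:FR spread widely here, with replicate 1 above every other library. atpB, the catalytic beta subunit, overlaps atpE by 4 bases and had 1749, 2001 and 2747, then 2273, 2321 and 2805, then 2891, 1603 and 1956 TPM. No gene of this class passed the test.

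The NDH complex, which carries electrons around photosystem I, had 12 rows, of which ndhK was highest at 547, 549 and 686 TPM in WF, 651, 686 and 717 in W and 810, 616 and 680 in FR. Its neighbour ndhC had 164, 179 and 221, then 205, 239 and 227, then 315, 221 and 239 TPM, and neither passed. rbcL, the large subunit of the carbon fixing enzyme Rubisco, had only 25.5, 39.7 and 40.5 TPM in WF, 47.1, 45.6 and 23.6 in W and 36.5, 44.9 and 57.9 in FR. By contrast, its 4 nuclear partners (RBCS genes) summed to 51260 to 60530, 30170 to 40190 and 69350 to 92070 TPM in these groups. The rbcL libraries overlapped in all comparisons. clpP, a subunit of the Clp protease and next to ycf1 in level among the other proteins, had 42.6, 35.0 and 47.2, then 54.9, 48.8 and 49.9, then 49.1, 41.9 and 48.8 TPM and did not pass.

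The chloroplast genome also codes for part of its own gene expression machinery. Of 26 ribosomal protein rows, rpl32 had 6464, 6513 and 7532 TPM in WF, 8772, 7362 and 7608 in W and 9737, 7584 and 8175 in FR. rpl16 had 1018, 1130 and 1255, then 1087, 839 and 1050, then 1213, 1541 and 1344 TPM. The alpha subunit gene of the RNA polymerase, rpoA, lies in the ribosomal protein cluster and had 162, 175 and 165 TPM in WF, 152, 166 and 164 in W and 238, 245 and 212 in FR. Artificial low R:FR was above both other groups here. rpoB, the beta subunit gene, had only 2.138, 2.101 and 3.425, then 2.185, 2.110 and 2.297, then 3.103, 3.891 and 3.656 TPM. The 23S rRNA (rrn23S) had 316, 372 and 503, then 600, 661 and 345, then 409, 443 and 623 TPM, with all groups overlapping, and its copy in the inverted repeat was at 316 to 656 TPM. Among the tRNAs a tRNA-Thr row (ArthCt100) was highest, with 549, 522 and 678 TPM in WF, 967, 639 and 918 in W and 754, 535 and 526 in FR. trnH followed with 459, 511 and 504, then 509, 529 and 511, then 618, 545 and 479 TPM, and its groups overlapped. A tRNA of this length is shorter than most sequenced fragments, so tRNA levels rest on how reads at its edges were counted. The 15 pairs of genes that the inverted repeat holds in duplicate (30 rows) share their reads, and for all but the 4 lowest pairs the ratio of their mean TPM was 0.97 to 1.12.

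Biological low R:FR compared with weed-free changed 4 chloroplast genes. rps3 and rpl22, neighbouring genes for proteins of the small and the large ribosomal subunit, fell. psbJ and psbL, neighbouring genes for small subunits of photosystem II, rose. Over all 19383 genes tested by limma at an adjusted p under 0.05, 4.92% were higher and 2.86% lower, against 2 of 119 rows in each direction here, so the share called was below that of all genes. The libraries did not overlap in 10 higher and 8 lower rows, or 8.40 and 6.72%, beside 18.5 and 10.2% of all genes.

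rps3 had 531, 569 and 564 TPM in WF, 317, 303 and 353 in W and 740, 905 and 802 in FR. The groups did not overlap, with biological low R:FR lowest and artificial low R:FR highest. The log2 difference from WF was -0.77 ± 0.12 (SE) in W (adjusted p = 0.0084, limma) and 0.55 ± 0.12 in FR (adjusted p = 0.037, limma). rpl22 had 230, 245 and 272 TPM in WF, 167, 132 and 175 in W and 295, 350 and 316 in FR. Its order was the same, with a log2 difference of -0.66 ± 0.14 in W (adjusted p = 0.022, limma) and of 0.37 ± 0.14 in FR, which did not pass (adjusted p = 0.16, limma). The end of rpl22 and the start of rps3 share 16 bases, at 83467 to 83482 on the minus strand, shown in capitals within 60 bases (83445 to 83504, TAIR10.1). Reads over them belong to both genes, and the remaining bases are separate.
rpl22 and rps3: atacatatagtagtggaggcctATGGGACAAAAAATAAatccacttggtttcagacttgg

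psbJ had 94.8, 89.7 and 111 TPM in WF, 156, 141 and 127 in W and 125, 102 and 106 in FR. All biological low R:FR libraries were above the others, and the log2 difference from weed-free was 0.52 ± 0.13 (adjusted p = 0.039, limma). psbL had 21.5, 22.6 and 31.2, then 41.1, 37.0 and 34.6, then 27.9, 24.4 and 29.7 TPM, with a log2 difference of 0.60 ± 0.16 (adjusted p = 0.042, limma). psbF and psbE, the other genes of this cluster, which code for the cytochrome b559 subunits, had log2 differences of 0.34 and 0.24 and did not pass. Scaling each row to the chloroplast total of its library turned the split from 2 higher and 2 lower to 0 higher and 3 lower. The count of higher genes was 0 without weed-free replicate 1 or 2, biological replicate 1 or 2, or artificial replicate 1 or 2, and 5 without weed-free or biological replicate 3, and rpl22 was lost without weed-free replicate 1 or 2 or biological replicate 1.

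**Figure D3:**
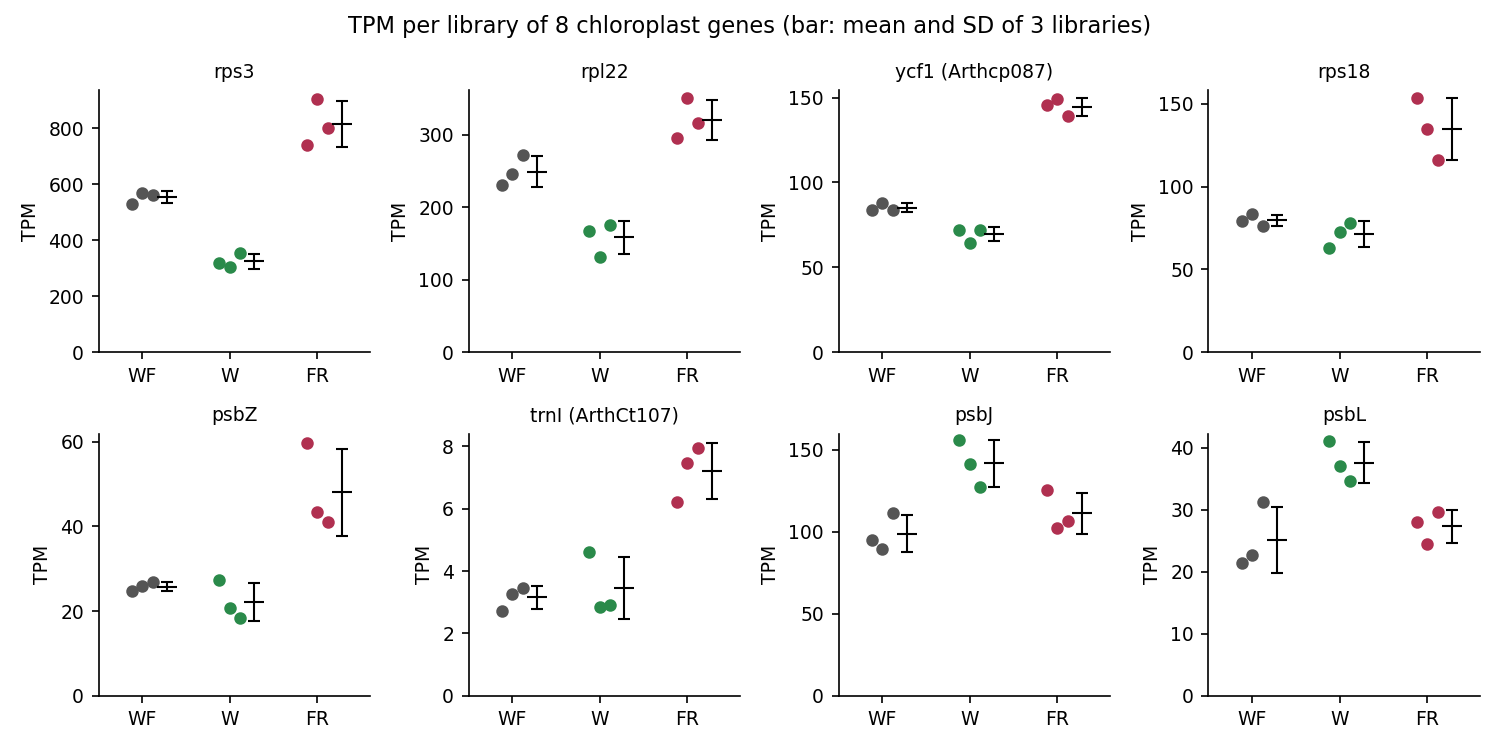
TPM (y axis, from 0) of 8 chloroplast genes in each library of weed-free (WF), biological low R:FR (W) and artificial low R:FR (FR), with the mean and SD of 3 libraries beside the points. rps3 lies at 303 to 353 TPM in W, 531 to 569 in WF and 740 to 905 in FR, while psbJ and psbL are highest in W.

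Artificial low R:FR compared with weed-free, the same control libraries as above, gave 9 chloroplast rows that rose and 0 that fell. They were ycf1, whose product has been placed in the import machinery of the inner envelope, the ribosomal protein genes rps18 and rps3, psbZ, another small photosystem II gene, ycf3, an assembly factor of photosystem I, rpoA, and 3 tRNA rows. These 9 of 119 rows, among them both copies of trnI that share their reads, compare with 2.05% of all genes higher and 1.12% lower. No row was lower even at an unadjusted p under 0.05, while 41 were higher. The libraries of 43 rows (36.1%) did not overlap, all with artificial low R:FR above weed-free, against 13.2% of all genes in that direction and 14.3% in the other. The median log2 difference was 0.30 over the chloroplast rows and -0.05 over all genes tested. Light source and chamber cannot be told apart in this shift.

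The full-length ycf1 (Arthcp087, 5361 bases, 123884 to 129244, minus strand, TAIR10.1) had 83.6, 88.1 and 83.6 TPM in WF, 72.0, 64.5 and 72.1 in W and 146, 149 and 139 in FR. No groups overlapped. The log2 difference was 0.77 ± 0.10 in FR (adjusted p = 0.0065, limma) and -0.29 ± 0.10 in W (adjusted p = 0.10, limma). A truncated copy of 1032 bases at the edge of the inverted repeat (ArthCp070), which shares its first 1030 bases with the full gene, was at 1.84 to 3.67 TPM. Of the 50-base stretches of the full gene 4.42% also occur in nuclear and 3.75% in mitochondrial sequence, and none of those of rps3, rpl22, rps18 or psbZ do.

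rps18, a small ribosomal subunit gene, had 79.3, 83.3 and 76.4 TPM in WF, 63.0, 72.8 and 78.3 in W and 154, 135 and 116 in FR. Artificial low R:FR stood apart from both other groups, with a log2 difference of 0.75 ± 0.13 from weed-free (adjusted p = 0.018, limma). psbZ had 24.6, 25.9 and 26.9, then 27.3, 20.8 and 18.4, then 59.7, 43.4 and 41.0 TPM, a log2 difference of 0.87 ± 0.18 (adjusted p = 0.029, limma). The trnI row (ArthCt107), a tRNA for isoleucine interrupted by an intron and placed between the 16S and 23S rRNA genes, was low at 2.72, 3.27 and 3.46, then 4.60, 2.84 and 2.92, then 6.20, 7.46 and 7.96 TPM. It too was separate in artificial low R:FR, by 1.17 ± 0.21 (adjusted p = 0.018, limma). Its copy (ArthCt124) and the trnA row beside it (ArthCt108) were also called, at 0.99 and 1.36, and since copies share reads and the trnI and trnA genes are neighbours, these rows are not independent.

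The count of 9 depended on single libraries. It was 1 without weed-free replicate 1 or 2 or artificial replicate 2, 2 without artificial replicate 1, 3 without weed-free replicate 3, 5 without biological replicate 2 and 17 without artificial replicate 3, and it was 4 when rows were scaled to the chloroplast total. It was 7 when copies in the inverted repeat were summed, and the trnA call (ArthCt108) was lost. The call of ycf1 was kept in all 20 of these and other alternatives, with log2 differences of 0.57 to 0.79. That of rps18 was lost in 5 of them, of psbZ and ycf3 in 7 each, of rps3 in 9 and of rpoA in 11.

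The treatments were then compared with each other, a comparison in which light source and chamber cannot be told apart. Of the 119 rows, 32 were lower in W than in FR and 1, psbL, was higher (log2 difference 0.46 ± 0.16, adjusted p = 0.042, limma). The 32 rows make 26.9%, against 12.5% of all genes lower and 21.9% higher. Libraries did not overlap in 34 rows that were lower (28.6%) and 3 that were higher (2.52%), beside 17.1 and 34.2% of all genes. The median log2 difference was -0.24 over the chloroplast rows and 0.19 over all genes. Of 129 tested mitochondrial rows, the other organelle set, 22 (17.1%) were higher in biological low R:FR, a smaller share than over all genes, and 1 was lower.

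By class the lower rows were 13 of 28 tested tRNA rows, 8 of 25 ribosomal protein rows, 3 of 12 NDH rows, 3 of 9 other proteins, 2 of 3 polymerase rows, and 1 each in photosystem II, photosystem I with its assembly, and the rRNAs. The lower tRNA rows include trnI, trnA and trnR in both copies of the inverted repeat, which share their reads. No row of the ATP synthase, of cytochrome b6f or of Rubisco was called. Class medians ran from -0.68 for the tRNAs and -0.66 for the polymerase, through -0.26 for the ribosomal proteins, -0.09 for NDH and 0.03 for photosystem I, to 0.13 for photosystem II, where 9 of 15 rows had a positive difference and psbZ was the 1 called lower. The median tRNA row had a mean level of 4.60 TPM. Most of the called tRNA rows that could be tested in the normalized counts did not pass there, as given below.

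The rows with the lowest adjusted p were rps3, at -1.33 ± 0.12 (adjusted p = 0.000195, limma), ycf1, at -1.06 ± 0.10 (adjusted p = 0.000244), rpl22, at -1.03 ± 0.14 (adjusted p = 0.000726), and rps18, at -0.91 ± 0.13 (adjusted p = 0.000968). The lower rows came from 16 of 37 runs of neighbouring tested rows on the same strand, and in 7 of these runs at least 2 rows were lower. The runs that hold the rRNA genes are 2 of these 7 and are copies in the inverted repeat that share their reads. Lower NDH rows (ndhG, ndhI and ndhH) and rps15 were neighbours of ycf1 in 1 such run, whose other genes ndhD, psaC, ndhE and ndhA were not called. Without artificial replicate 1 or 2 the number of lower rows was 19. Without other single libraries it was 22 to 31. The number of higher rows was 0 without weed-free replicate 2, biological replicate 1 or artificial replicate 2, 3 without weed-free replicate 3 or biological replicate 2, and 4 without biological replicate 3.

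**Figure D4:**
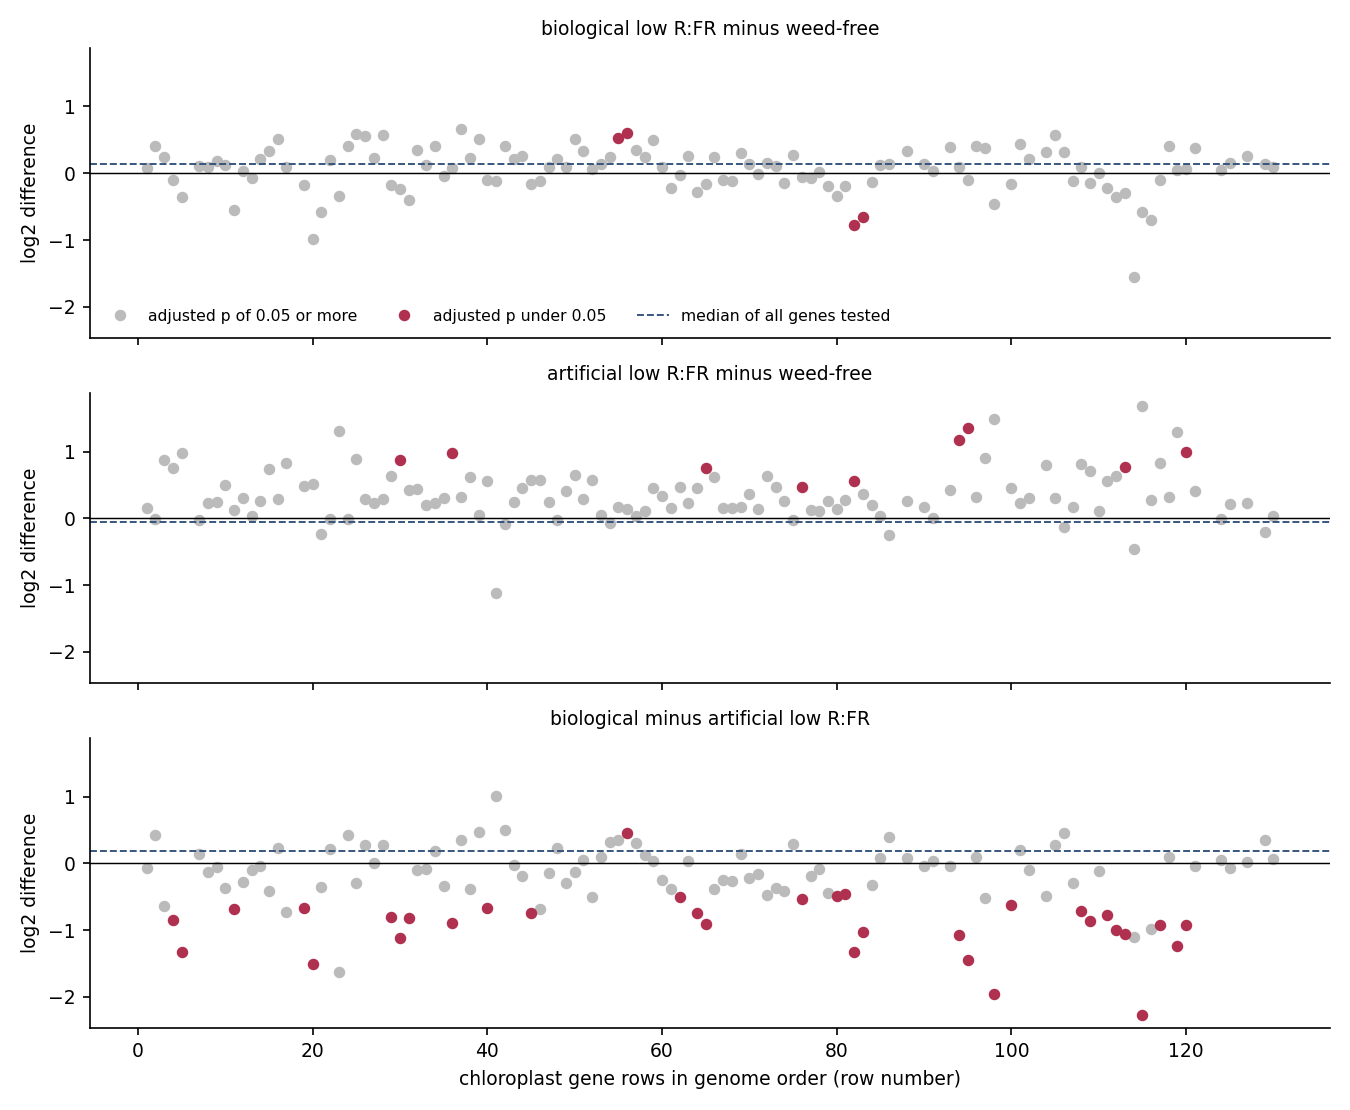
Log2 differences (y axis) of the 119 tested rows in genome order (x axis, row number) for 3 comparisons, with rows at an adjusted p under 0.05 in red and the median of all genes tested as a dashed line. In the lowest panel the 32 lower rows are spread over the genome, while the upper panel holds 4 called rows in neighbouring pairs.

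The ribosomal protein cluster that runs from rpl23 to rpoA showed the change within a single run of genes, of which 9 are given here, and it was chosen for display after its values were seen. In the direction of transcription, the log2 difference between biological and artificial low R:FR was 0.39 for rpl23, 0.08 for rpl2 and -0.33 for rps19, none of which passed. It was -1.03 for rpl22 and -1.33 for rps3, then -0.46 for rpl16 and -0.48 for rpl14, and all 4 passed. The calls of rps3 and rpl22 were kept in all 20 alternatives, whereas that of rpl16 was lost in 6 of them and that of rpl14 in 12. Further along it was -0.09 for rpl36, which did not pass, and -0.53 for rpoA, which did. Both genes that fell in W against WF are the adjacent pair in the middle of the cluster, and whether they differ from their neighbours was not tested.

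**Figure D5:**
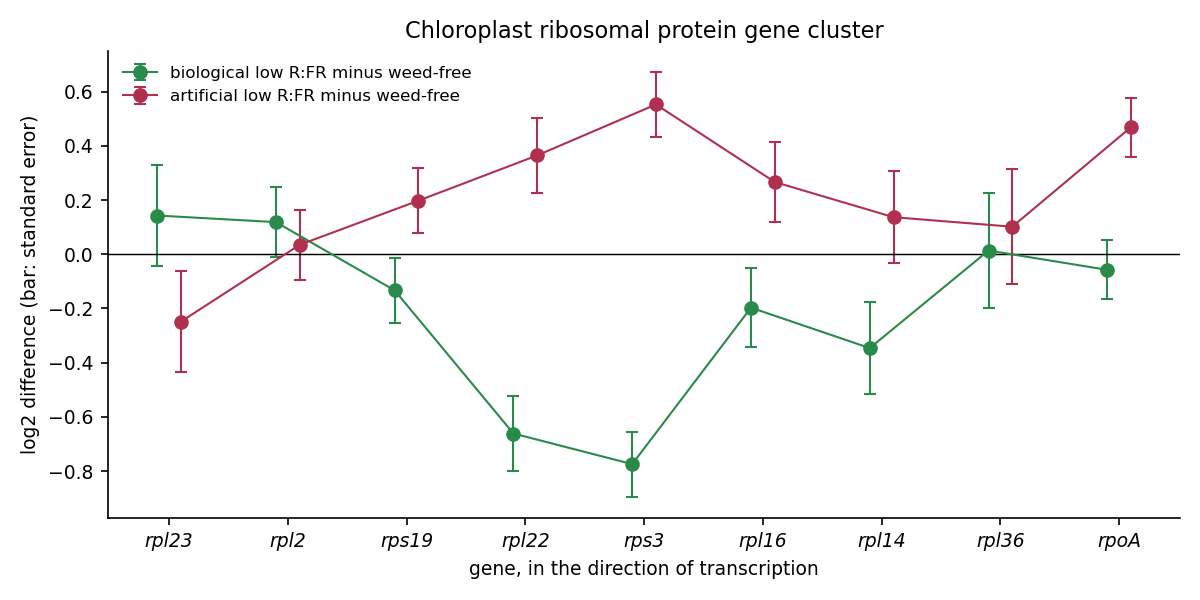
Log2 difference from weed-free (y axis, with standard errors) of 9 genes of the ribosomal protein cluster in the direction of transcription (x axis, not every gene shown), in biological and artificial low R:FR. The lines are farthest apart at rps3, at -0.77 and 0.55, and cross between rpl2 and rps19.

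Nuclear genes that serve chloroplast transcription were counted in the same fit. Of 20 such genes, 2 were lower and 0 higher in W than in WF, beside 2.86 and 4.92% of all genes. Between treatments 6 were lower and 1 higher in W than in FR, beside 12.5 and 21.9% of all genes. FSD3, an iron superoxide dismutase bound to the plastid polymerase complex, had 23.1, 26.2 and 23.5 TPM in WF, 9.68, 10.5 and 15.1 in W and 23.1, 19.4 and 22.5 in FR. It was thus below the others in every biological library, by -1.06 ± 0.17 against weed-free (adjusted p = 0.0084, limma). TRXZ, a thioredoxin of the same complex, fell by 0.69 on the log2 scale (adjusted p = 0.047). SIG1, a sigma factor that guides the polymerase to promoters, was 0.71 lower in W than in FR on the log2 scale, while SIG3 was 0.50 higher. FR against WF gave 0 calls in this list.

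Of 7 nuclear genes for chloroplast RNA processing and decay, 3 fell in W against WF, beside 2.86% of all genes. They were CSP41A and CSP41B, RNA binding proteins with endonuclease activity, at -0.50 and -0.59, and RHON1, a partner of RNase E, at -0.78 (adjusted p = 0.043, 0.045 and 0.035, limma). The same 3 were lower in W than in FR, beside 12.5% of all genes, and 0 were called in FR against WF. Of the 4 RBCS genes, 3 fell in W against WF and all 4 were lower in W than in FR, with a median log2 difference of -1.53, beside the same 2.86 and 12.5% of all genes lower. Both comparisons of biological low R:FR share its libraries, so these counts are not separate evidence.

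The table of normalized counts gave a second readout of the same libraries for few of these genes. It holds 18 chloroplast rows, all tRNAs, of which 14 reached 10 normalized counts in at least 3 libraries. In it 0 rows were called against weed-free in either treatment, with edgeR and DESeq2 on the recovered reads likewise at 0. At an unadjusted p under 0.05, limma had 1 row higher and 1 lower in W, and 5 higher and 0 lower in FR. Over all 7132 genes tested there, limma called 2.34% as higher and 2.24% as lower in W, and 1.40 and 1.88% in FR. Between the treatments 1 row was lower in W, a trnS row (ArthCt117) with 42.3, 44.5 and 25.6 normalized counts against 76.1, 62.9 and 64.1 in FR (log2 difference -0.87 ± 0.28, adjusted p = 0.027, limma), beside 12.2% of all genes lower and 12.8% higher. edgeR and DESeq2 each called 2. Other tRNA rows called lower in W than in FR by TPM were tested here too and did not pass in limma. They were trnR (ArthCt093), trnL (ArthCt101), trnV (ArthCt103) and trnP. Their log2 differences were -0.72, -0.90, -0.79 and -0.42 (adjusted p = 0.056, 0.17, 0.13 and 0.50, limma). The trnL row had 2 to 43 recovered reads a library, at 133 to 293 TPM.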

How the data were processed

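RNA from the 9 leaf pools was prepared with the Illumina TrueSeq RNA kit and sequenced. Per the labels and the study's methods, the authors aligned reads with Bowtie2 2.4.3 to the TAIR10.1 genome and counted them with HTSeq 0.13.5. The deposited TPM values, with FPKM and coverage, are per library and sum to 1000000. The program and strand setting behind them are not given in the sources used here, so overlapping genes on opposite strands cannot be separated. The deposited normalized counts, of unit signal, are reads divided by a DESeq2 1.30.1 size factor, and 100% of values came out as whole reads at a tolerance of 1e-06. The recovered reads numbered 1683100 to 5025100 a library, of which 0.268 to 0.430% fell in chloroplast rows. Columns of the authors' own comparisons hold fold changes and p-values and were not used.

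Genes with at least 0.5 TPM in at least 3 libraries were tested on log2(TPM + 0.1) in 1 fit of all 9 libraries with limma 3.58.1 (R 4.3.3), with the variance trend and robust options on. Fold changes on this scale understate changes of low genes. Tests were two-sided with Benjamini-Hochberg adjustment over all genes tested, and a threshold of 0.05. Normalized counts were tested likewise, as log2(count + 1). edgeR 4.0.16 and DESeq2 1.42.0 were run on recovered reads as alternatives. The scripts were tested on simulated data. Start and end of 129 rows matched the reference annotation, except a trans-spliced rps12 row.

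Values per library are given for psbA, rbcL, psbD, the 2 highest rows of each class, and up to 4 called rows of lowest adjusted p in each direction. The members and lists were chosen with earlier results of these data known. Alternatives were the pseudocount, the filter, the scaling, the variance model, a replicate block and leaving out each library. Some genes of the ribosomal protein cluster are not reported here.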

Additional observations from a re-analysis of the deposited data

Results flagged for a closer look

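In 5 chloroplast rows every biological low R:FR (W) library lay below, and every artificial low R:FR (FR) library above, all weed-free (WF) libraries, and the difference between both treatments passed the limma test. They make 4.20% of the 119 rows, beside 3.53% of all genes tested, and 0 rows showed the reverse pattern, beside 4.14% of all genes. The share of these 5 rows is thus close to that of all genes. Because this separation picked the rows, their p-values between both treatments are not separate support. For rps3 the log2 difference between biological and artificial low R:FR was -1.33, for ycf1 (Arthcp087) -1.06, for rpl22 -1.03 and for rpl33 -0.74 (adjusted p = 0.000195, 0.000244, 0.000726 and 0.00119, limma). The remaining row is a tRNA-Arg row (trnR, ArthCt115) at -2.27 (adjusted p = 0.0145, limma).

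rpl33 and trnR were added here after their values were seen. rpl33, a large ribosomal subunit gene next to rps18, had 42.6, 41.7 and 45.3 TPM in WF, 35.0, 35.6 and 36.3 in W and 56.6, 66.7 and 55.5 in FR. trnR had 5.26, 4.52 and 3.34, then 2.52, 3.13 and 2.89, then 34.8, 12.2 and 6.44 TPM. Its libraries of artificial low R:FR differ widely, and its call was lost without biological replicate 1 (adjusted p = 0.053, over a range of 0.00065 to 0.053 in all alternatives). Its copy in the inverted repeat (ArthCt127) had 30.3, 11.6 and 6.17 TPM in FR and shares its reads.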

How the results depend on the processing

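Of 46 calls, 15 were kept in every alternative that could be run, among them rps3 lower in biological low R:FR than in both other groups and ycf1 higher in artificial low R:FR, and 0 changed direction. The chloroplast genes higher in biological low R:FR than in weed-free, 2 in number, were 0 with no filter, with scaling to the chloroplast total (also with the replicate block) and with a variance of no trend, and 0 to 5 with single libraries left out. The 2 lower genes became 1 with no trend, and 1 to 2 with libraries left out. In artificial low R:FR the 9 higher rows became 4 with no filter, 4 with scaling to the chloroplast total, 5 with the block added to it and 3 with no trend, and 1 to 17 with libraries left out. Between treatments the 1 higher row became 0 with no filter or no trend, 4 with scaling to the chloroplast total (with the block too) or quantile normalization and 2 with the replicate block, and 0 to 4 with libraries left out. The 32 lower rows were 19 to 31 with libraries left out and 27 to 33 otherwise. Quantile normalization moved the median log2 difference of all genes from 0.19 to 0.01 between the treatments, and 26 of the 32 lower rows were kept under it.

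In the normalized counts the 1 lower row became 2 with edgeR, DESeq2 or the replicate block, and 0 to 2 with libraries left out, and the 0 higher rows 0 to 1, as did those higher in FR than in WF. The log2 ratios of totals ran from 0.10 to 0.22, 0.08 to 0.27 and -0.12 to 0.06 with libraries left out. The study describes independent experiments, but the labels do not say whether a replicate number marks one. The main fit therefore did not take the numbers as pairs. The correlation of same-numbered libraries ran from 0.00 to 0.24 and that of others from -0.21 to 0.12, and 7 of 9 libraries correlated best with their own number. A link between number and experiment can thus not be set aside, and the p-values of the main fit leave it out. With the replicate block 2 rows were higher and 3 lower in W than in WF, 12 and 0 in FR than in WF, and 2 and 31 in W than in FR. The cause of these shifts was not tested. Summing the copies of the inverted repeat, added after seeing the data, left 29 lower rows between the treatments and 7 higher in FR than in WF. The 19 rows that averaged below 1 TPM are those on which the pseudocount weighs most.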
